A study of Mus musculus with 4 samples.

Results

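DNA replication and nucleotide supply genes were followed in small-intestinal adenomas of mice with and without PAF. The set held 43 genes named by symbol in the study's expression table, out of 29871 distinct symbols, and grouped here by the complex or step they serve. All 43 were found and all 43 passed the filter of a mean of at least 1 FPKM (mapped fragments scaled for transcript length and for library size), as did 13716 symbols in all. CDC6 stood in 2 rows, of which the more abundant was used. Symbols are written in capitals, as in that table.

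The control group was adenoma from mice of genotype APC Min/+, which carry a truncating allele of the tumour suppressor gene Apc, and the other group was adenoma from PAF KO; APC Min/+ mice. Both groups therefore share the Apc allele, and the PAF knockout is the named difference. Each group had 2 libraries of total RNA from small-intestinal adenoma. Age, sex, the part of the PAF gene that was altered, and whether a library came from 1 animal or from pooled adenomas are not given in the labels. Knowledge of the study, not the labels, identifies PAF as PCNA-associated factor, the product of the Pclaf gene, a small protein that binds the sliding clamp PCNA at replication forks. The comparison asks whether transcripts of the replication machinery differ when that factor is missing.

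As background, a replication origin is licensed when CDC6 and CDT1 load the ring-shaped MCM2 to MCM7 helicase onto DNA, and geminin (GMNN) blocks CDT1 after S phase has begun. CDC45 and the GINS complex then turn the ring into an active helicase, RFC loads PCNA, and the polymerases alpha, delta and epsilon copy the strands while ribonucleotide reductase, thymidylate synthase and thymidine kinase supply deoxynucleotides. Many of these genes are transcribed in S phase under E2F factors, and in the intestine they are used by the dividing cells of crypts and adenomas.

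Promoter sequence was available for 34 of the 43 genes, from RefSeq on build GRCm38.p6 (a window of 300 bases around the annotated start). Of the forms of the E2F consensus, only TTTCGCGC and TTTGGCGC were searched, on both strands. A match to either was found in 11 of 34 genes (32.4%), against 251 of 27025 genes with a promoter sequence (0.929%). The genes were CDT1, DNMT1, LIG1, MCM3, MCM5, MCM6, MCM7, POLA1, POLE2, RFC3 and UHRF1. The CCAAT box, searched as CCAAT on both strands, was found in 22 of 34 genes (64.7%) against 41.1% of all genes, and the CHR element of mitotic genes, searched as TTTGAA on both strands, in 6 of 34 (17.6%) against 20.2%. In 1 of the 11 windows an E2F match overlapped a CCAAT or CHR match. A match is a stretch of letters and was not tested for binding. The promoters below are shown because MCM5 and MCM6 hold overlapping E2F matches, CDT1 holds 1 match beyond its start site and was the lowest member relative to the controls, and MCM10, which was higher in both knockout libraries, holds no such match in its window. Each runs 5′ to 3′, with the E2F matches in capitals. The MCM10 window ends in TTTGGCG, which is TTTGGCGC without its last letter. The next base lies outside the window, so the search could not decide whether MCM10 has a match at that edge. MCM10 was counted among the genes without a match.
MCM5, chr8:75109259-75109558, plus strand: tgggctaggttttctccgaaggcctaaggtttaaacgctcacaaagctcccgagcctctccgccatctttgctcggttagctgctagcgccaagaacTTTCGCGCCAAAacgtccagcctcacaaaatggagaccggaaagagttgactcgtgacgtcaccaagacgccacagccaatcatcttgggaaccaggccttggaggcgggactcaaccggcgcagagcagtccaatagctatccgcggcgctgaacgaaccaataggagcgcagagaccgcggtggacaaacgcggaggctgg
MCM6, chr1:128359656-128359955, minus strand: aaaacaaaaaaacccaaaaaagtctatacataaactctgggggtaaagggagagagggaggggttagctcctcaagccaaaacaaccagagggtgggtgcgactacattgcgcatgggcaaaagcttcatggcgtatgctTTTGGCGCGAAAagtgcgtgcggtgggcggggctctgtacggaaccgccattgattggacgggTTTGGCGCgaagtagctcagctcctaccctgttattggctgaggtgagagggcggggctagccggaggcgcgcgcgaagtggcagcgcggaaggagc
CDT1, chr8:122567765-122568064, plus strand: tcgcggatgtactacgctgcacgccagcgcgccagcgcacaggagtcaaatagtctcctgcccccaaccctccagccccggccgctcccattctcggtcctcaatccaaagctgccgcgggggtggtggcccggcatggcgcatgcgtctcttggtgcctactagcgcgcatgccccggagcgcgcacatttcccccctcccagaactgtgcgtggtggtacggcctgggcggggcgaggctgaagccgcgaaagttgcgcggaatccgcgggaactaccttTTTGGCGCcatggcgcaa
MCM10, chr2:5012742-5013041, minus strand: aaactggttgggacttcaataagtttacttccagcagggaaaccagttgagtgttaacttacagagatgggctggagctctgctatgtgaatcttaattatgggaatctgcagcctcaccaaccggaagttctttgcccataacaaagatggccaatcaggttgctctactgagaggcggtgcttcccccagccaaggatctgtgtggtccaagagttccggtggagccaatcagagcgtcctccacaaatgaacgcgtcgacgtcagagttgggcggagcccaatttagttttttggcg

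The 11 genes with an E2F match and the others gave different pictures by library on the scale as deposited. Of these 11 genes, 0 lay above both controls in knockout 1 (31.2% of all tested rows) and 9 did in knockout 2 (51.3% of all tested rows). Of the 23 genes with a promoter sequence and no match, 12 lay above both controls in knockout 1 and 16 in knockout 2. The median difference from the controls was -0.10 and 0.27 on the log2(FPKM + 1) scale for genes with a match, in knockout 1 and knockout 2, and 0.08 and 0.65 for genes without one. These are descriptions, and the difference between the classes was not tested. The class without a match includes genes that hold a form that was not searched. The count of 0 and the gap between the classes depend on the scaling. As deposited, 0 of 11 and 11 of 23 genes were higher in both knockouts (21.5% of all tested rows). With each library centred on its median 5 of the 11 genes, MCM3, MCM5, MCM6, MCM7 and POLA1, were higher in both knockouts, as were 12 of the 23 (30.2% of all rows). After removal of a GC and length trend, described further on, the counts were 6 of 11 and 15 of 23 (27.8% of all rows).

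The libraries themselves differed in ways that bear on every value below. Depth, estimated from the smallest steps of the FPKM values, was about 1.34e+07 and 1.77e+07 fragments for the controls and about 1.54e+07 and 2.4e+07 for the knockouts. Between the controls the median gap of the 43 genes was 0.08 on the log2(FPKM + 1) scale, and between the knockouts it was 0.42. The 2 controls differed by more than counting noise, with a chi-square per degree of freedom of 6.55 over 982 genes with a single transcript. Knockout 2 was the only library with the female-specific transcript XIST above 1 FPKM (46.4 FPKM, at most 0.00861 in the others), and the only one with the Y-linked EIF2S3Y listed at 0. The 2 knockouts thus differed in sex-linked transcripts, with EIF2S3Y at 26.0 FPKM in knockout 1. The transcript of PAF, listed under its older RIKEN name, read 17.9 and 17.8 FPKM in the control pair and 4.13 and 11.4 FPKM in the knockout pair, with a log2 difference of -1.24 (SE 0.484, n = 2 per group, limma adjusted p = 0.398), so the transcript was present in both libraries labelled as knockouts. Epithelial markers were abundant in every library: the summed level of 8 markers was 6776 and 6656 FPKM in the control pair, 7453 FPKM in knockout 1 and 7900 FPKM in knockout 2. Summed levels of 8 absorptive enterocyte markers were 7729 and 8316 FPKM in the control pair, 12108 in knockout 1 and 899 in knockout 2. In knockout 1 these markers split, with 4 above both controls and 3 below (31.2% and 56.2% of all tested rows). In knockout 2 all 8 lay below both controls (41.7% of all tested rows). All 7 fibroblast markers and 7 of 8 smooth muscle markers stood above both controls in each knockout, as did 21.5% of all tested rows. Their summed levels were 269 and 272 FPKM for fibroblast markers in the controls, 344 in knockout 1 and 695 in knockout 2, and 203 and 205 FPKM for smooth muscle markers, 217 in knockout 1 and 744 in knockout 2. Of 9 leukocyte markers, 6 passed the filter, with a summed level of 28.3 and 30.0 FPKM in the control pair, 20.6 in knockout 1 and 33.9 in knockout 2. The part of these shifts in the values below was not tested, and in bulk tissue a change in the number of dividing cells cannot be told apart from a change in RNA per cell.

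Across the set, levels in the knockout adenomas stayed near those of the controls in knockout 1 and lay mostly above them in knockout 2. Of the 43 genes, 14 were higher in both knockout libraries than in both controls, where 21.5% of all tested rows were. Another 8 genes were lower in both, where 30.2% of all tested rows were, and the remaining 21 overlapped. The 14 genes make up 32.6% of the set and the 8 genes 18.6%. With each library centred on its median the split was 22 higher and 4 lower, against 30.2% and 25.6% of all rows, and with quantile scaling it was 22 and 5. The median log2 difference over the set was 0.25, with -0.03 in knockout 1 and 0.53 in knockout 2. Over all tested rows it was 0.003, with -0.11 and 0.09.

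No gene of the set passed the test of genotype. With limma on log2(FPKM + 1), 0 of 43 genes had an adjusted p under 0.05, against 0.0729% of all tested rows (10 of 13716), and 4 had an unadjusted p under 0.05: TK1, PRIM2, RRM2 and MCM10, all higher in the knockouts. Of all tested rows 13.2% had such a p. The lowest adjusted p in the set was 0.297, for TK1. With 2 libraries a group, an exact permutation test of a single gene cannot go below p = 0.333. Without knockout 1 limma called 27 of the 43 genes (8397 of all rows) and without knockout 2 it called 3 (2833 of all rows), since the lone knockout library is then assumed to vary as little as the controls do. Without either control it called 0 genes.

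**Figure D1:**
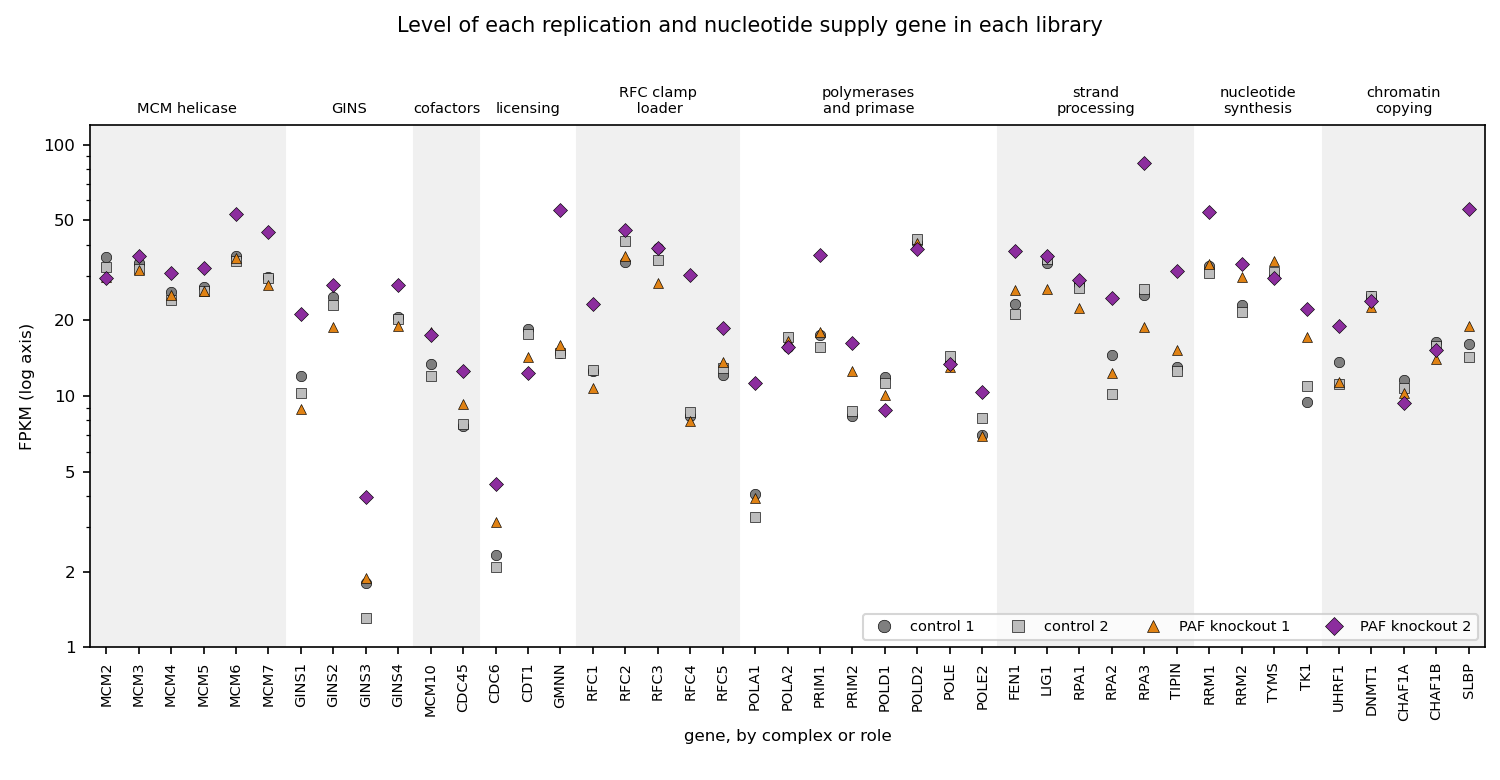
Level of each of the 43 genes (x axis, by complex or role) in FPKM on a log axis; each point is 1 library, and points of equal level overlie each other. Knockout 2 was the highest library for 32 genes (74.4%), against 46.8% of all tested rows. It stood far above the others for RPA3, GMNN, SLBP and RFC4, while CDT1 and POLD1 lay below both controls in both knockouts.

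In knockout 1 all 4 nucleotide supply genes lay above both controls, as did both helicase cofactors described further on. Of the 43 genes, 15 lay above and 21 below both controls in that library, against 31.2% and 56.2% of all tested rows. TK1, the cytosolic thymidine kinase that salvages thymidine, read 9.48 and 10.99 FPKM in the control pair and 17.1 and 22.3 FPKM in the knockout pair. Both knockouts lay above both controls, giving a log2 difference of 0.87 (SE 0.209, limma adjusted p = 0.297, n = 2 libraries each). TK1 shares its locus with Afmid in the RefSeq annotation, and the strand setting of the counting is not given, so reads of the pair may not be fully separated.

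RRM2, the regulatory subunit of ribonucleotide reductase that is made in S phase, read 23.0 and 21.6 FPKM in the control pair and 29.7 and 33.6 FPKM in the knockout pair (log2 difference 0.49, SE 0.163, limma adjusted p = 0.361). The large catalytic subunit RRM1 read 32.8 and 30.7 FPKM in the control pair, 33.6 in knockout 1 and 54.02 in knockout 2. Groups did not overlap for either subunit, but the knockout 1 value of RRM1 was only slightly above control 1. Thymidylate synthase, TYMS, which makes thymidylate from deoxyuridylate, read 29.8 and 31.1 FPKM in the control pair and 34.4 and 29.5 FPKM in the knockout pair. For TYMS the knockout libraries stood on either side of the controls. The median log2 difference of the 4 genes was 0.45, with 0.29 in knockout 1 and 0.66 in knockout 2. After removal of the GC and length trend it was 0.22, with 0.34 and 0.15, and the difference of RRM2 was 0.23.

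The licensing factors lay on both sides of the controls. CDC6, the ATPase that recruits the helicase to origins, read 2.33 and 2.096 FPKM in the control pair and 3.14 and 4.46 FPKM in the knockout pair (log2 difference 0.57, SE 0.233, limma adjusted p = 0.410). Its second row in the table, at 0.594 and 0.898 FPKM in the control pair and 0.661 and 0.448 FPKM in the knockout pair, lay below the filter and overlapped between groups. CDT1, which delivers the helicase together with CDC6, was lower in both knockouts, with 18.5 and 17.7 FPKM in the control pair and 14.3 and 12.4 FPKM in the knockout pair (log2 difference -0.42, SE 0.165, limma adjusted p = 0.402). After removal of a trend on GC content and transcript length, described further on, the CDT1 difference was -0.07. GMNN, the inhibitor of CDT1, read 14.78 and 14.83 FPKM in the control pair, 16.01 in knockout 1 and 55.1 in knockout 2. The groups of GMNN did not overlap, yet nearly all of its log2 difference of 0.97 (SE 0.641, limma adjusted p = 0.540) lay in knockout 2.

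The ring subunits of the MCM helicase lay close to the controls in knockout 1. Of the 6 subunits, 5 overlapped between groups and MCM2 was lower in both knockouts, at 35.9 and 32.6 FPKM in the control pair and 29.7 and 29.6 FPKM in the knockout pair (log2 difference -0.20, SE 0.155, limma adjusted p = 0.573; the difference was 0.088 after removal of the GC and length trend). With each library centred on its median, the other 5 subunits were higher in both knockouts, so the overlap depends on the scaling. MCM6 read 36.04 and 34.4 FPKM in the control pair, 35.4 in knockout 1 and 53.01 in knockout 2. MCM7, whose locus overlaps Ap4m1, read 29.6 and 29.5 FPKM in the control pair, 27.7 in knockout 1 and 44.9 in knockout 2. Both were thus above the controls in knockout 2 alone. MCM3, MCM4 and MCM5 differed from the mean of the controls by -0.05 to 0.02 on the log2 scale in knockout 1 and by 0.13 to 0.30 in knockout 2. The median over the ring was -0.04 and 0.28 in the 2 libraries.

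The factors that activate the ring differed among themselves. MCM10, which joins the helicase to polymerase alpha, read 13.4 and 12.03 FPKM in the control pair and 18.0 and 17.4 FPKM in the knockout pair, with a log2 difference of 0.45 (SE 0.157, limma adjusted p = 0.375). It was nearly equal in the 2 knockouts, at 0.47 and 0.43 above the controls on the log2 scale. CDC45 read 7.59 and 7.72 FPKM in the control pair and 9.31 and 12.6 FPKM in the knockout pair (log2 difference 0.45, SE 0.208, limma adjusted p = 0.443), also without overlap. The GINS subunits, which clamp CDC45 to the ring, were all highest in knockout 2, as were 46.8% of all tested rows. GINS1 read 11.97 and 10.3 FPKM in the control pair, 8.87 in knockout 1 and 21.3 in knockout 2, and GINS2 and GINS4 had the same order of libraries, with knockout 1 below both controls. GINS3, the least abundant of the 43 genes in the controls, read 1.81 and 1.31 FPKM there and 1.88 and 3.95 FPKM in the knockout pair. Its values rest on about 61 and 59 fragments in the controls and about 73 and 239 in the knockouts.

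Clamp loader genes differed by subunit between the knockouts. RFC4 read 8.36 and 8.61 FPKM in the control pair, 7.96 in knockout 1 and 30.3 in knockout 2. RFC1, the large subunit, read 12.54 and 12.64 FPKM in the control pair, 10.8 in knockout 1 and 23.2 in knockout 2. Both went from below the controls in knockout 1 to far above them in knockout 2. RFC4 overlaps Eif4a2 in the annotation, so its reads may be shared. RFC5 was the only subunit without overlap, at 12.2 and 12.9 FPKM in the control pair and 13.7 and 18.6 FPKM in the knockout pair (log2 difference 0.32, SE 0.213, limma adjusted p = 0.537). RFC3 read 38.7 and 34.9 FPKM in the control pair, 28.1 in knockout 1 and 38.8 in knockout 2, and RFC2 34.3 and 41.3 FPKM in the control pair and 36.2 and 45.8 FPKM in the knockout pair. The median over the 5 subunits was -0.08 in knockout 1 and 0.53 in knockout 2. With median centring RFC4 was also higher in both knockouts. After removal of the GC and length trend RFC4 overlapped again, RFC2 was higher beside RFC5, and RFC3 was lower (log2 differences 0.24, 0.26 and -0.42 for RFC2, RFC5 and RFC3).

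Polymerase and primase subunits lay on both sides of the controls, also within an enzyme. Primase starts each new strand with an RNA primer, and both of its subunits were higher in both knockouts. PRIM2 read 8.34 and 8.73 FPKM in the control pair and 12.5 and 16.2 FPKM in the knockout pair (log2 difference 0.68, SE 0.195, limma adjusted p = 0.328). PRIM1 read 17.4 and 15.7 FPKM in the control pair, 17.96 in knockout 1 and 36.4 in knockout 2. The catalytic subunit of polymerase alpha, POLA1, read 4.08 and 3.30 FPKM in the control pair, 3.93 in knockout 1 and 11.3 in knockout 2, whereas its partner POLA2 stayed between 15.6 and 17.2 FPKM in all 4 libraries. Both genes of the lagging-strand polymerase delta in the set were lower in both knockouts, while its other subunits POLD3 and POLD4 overlapped between groups. POLD1 read 11.9 and 11.3 FPKM in the control pair and 10.1 and 8.81 FPKM in the knockout pair (log2 difference -0.27, SE 0.164, limma adjusted p = 0.511). POLD2 differed by less, at 40.7 and 42.3 FPKM against 40.5 and 38.6 FPKM. POLE, the catalytic subunit of leading-strand polymerase epsilon, was likewise slightly lower (13.5 and 14.5 FPKM against 13.1 and 13.4 FPKM), and its partner POLE2 overlapped between groups. With median centring POLD2 and POLE overlapped too, and after removal of the GC and length trend POLD1, POLD2 and POLE lay above the controls (0.27, 0.19 and 0.14 on the log2 scale).

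Genes that finish and protect the strands were highest in knockout 2 for all 6 members, as were 46.8% of all tested rows. FEN1, the nuclease that trims Okazaki fragments, read 23.3 and 21.2 FPKM in the control pair and 26.5 and 37.6 FPKM in the knockout pair (log2 difference 0.49, SE 0.235, limma adjusted p = 0.451). TIPIN, which stabilises paused forks with Timeless, read 13.1 and 12.6 FPKM in the control pair and 15.2 and 31.5 FPKM in the knockout pair. FEN1 and TIPIN were the members of this step without overlap. LIG1, the ligase that seals the fragments, and RPA1, the large subunit of the single-strand binding protein, lay below both controls in knockout 1 and slightly above them in knockout 2. RPA3, the smallest RPA subunit, had the widest spread of the set, at 25.2 and 26.8 FPKM in the control pair, 18.7 in knockout 1 and 84.3 in knockout 2. Its log2 difference of 0.61 had an SE of 0.780 (limma adjusted p = 0.706). RPA2 read 14.6 and 10.2 FPKM in the control pair and 12.3 and 24.5 FPKM in the knockout pair.

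Genes that copy chromatin behind the fork lay on both sides of the controls. The CAF-1 histone chaperone subunits of the set, CHAF1A and CHAF1B, were lower in both knockouts, while a further subunit, RBBP4, overlapped between groups. CHAF1A read 11.6 and 10.8 FPKM against 10.3 and 9.40 FPKM, and CHAF1B 16.3 and 15.8 FPKM against 13.99 and 15.2 FPKM. The maintenance methyltransferase DNMT1 read 25.06 and 24.99 FPKM in the control pair and 22.6 and 23.8 FPKM in the knockout pair. These are differences of -0.10 to -0.17 on the log2 scale, with SEs of 0.149 to 0.159. DNMT1 and CHAF1A overlapped between groups with median centring and lay above the controls (0.21 and 0.20) after removal of the GC and length trend, and CHAF1B stayed lower under both. UHRF1, which recruits DNMT1 to new strands, overlapped between groups (13.6 and 11.1 FPKM against 11.4 and 18.99 FPKM). SLBP, which binds the stem-loop of replication-dependent histone mRNAs, had the largest log2 difference of the set, 1.06 (SE 0.563, limma adjusted p = 0.477). It read 16.1 and 14.2 FPKM in the control pair, 19.0 in knockout 1 and 55.3 in knockout 2.

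**Figure D2:**
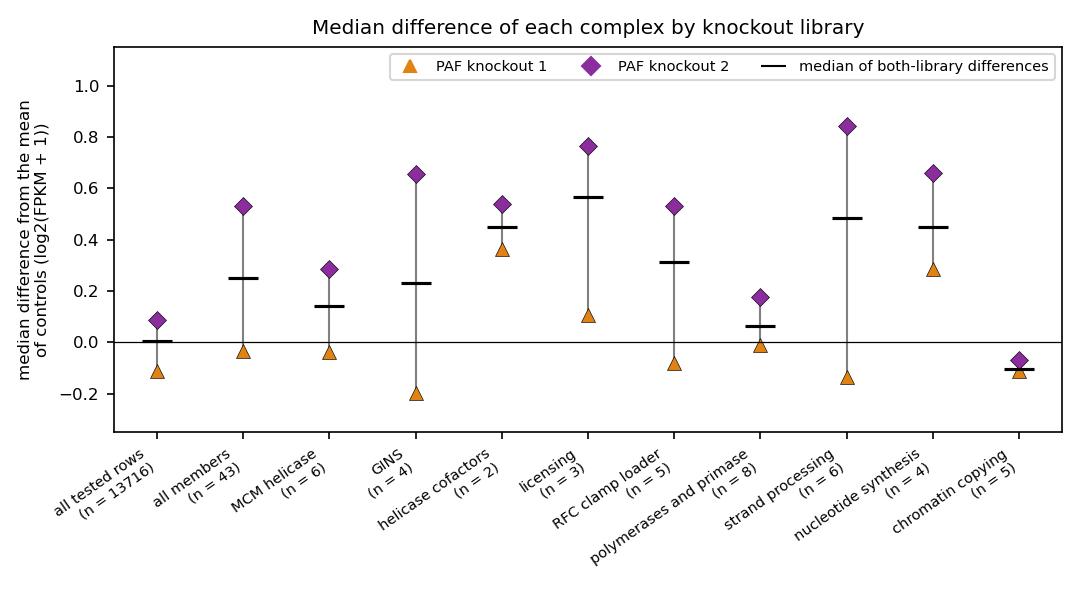
Median difference from the mean of the controls on the log2(FPKM + 1) scale (y axis) for all tested rows, all 43 genes and each complex (x axis), with a triangle for knockout 1, a diamond for knockout 2 and a bar for the median of the differences over both libraries. The 2 libraries lay on either side of 0 for the MCM ring, GINS, RFC, polymerases and strand processing, and both lay above 0 for the helicase cofactors, licensing and nucleotide synthesis; with median centring the knockout 1 medians of the MCM ring (0.10), RFC (0.05) and polymerases (0.12) lay above 0.

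Knockout 2 differed from knockout 1 as well as from the controls. Of the 43 genes, 10 were at least 2-fold higher in knockout 2 than in knockout 1, where 16.1% of all tested rows were: GINS1, GINS3, GMNN, RFC1, RFC4, POLA1, PRIM1, RPA3, TIPIN and SLBP. The ratio was 4.50 for RPA3, 3.80 for RFC4, 3.44 for GMNN, 2.91 for SLBP and 2.87 for POLA1, and RPA2 lay just outside at 1.99. No member was 2-fold higher in knockout 1 (9.38% of all rows), and none differed 2-fold between the controls (2.87% of all rows). The libraries share a genotype label, so this contrast is a description of these 2 libraries.

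**Figure D3:**
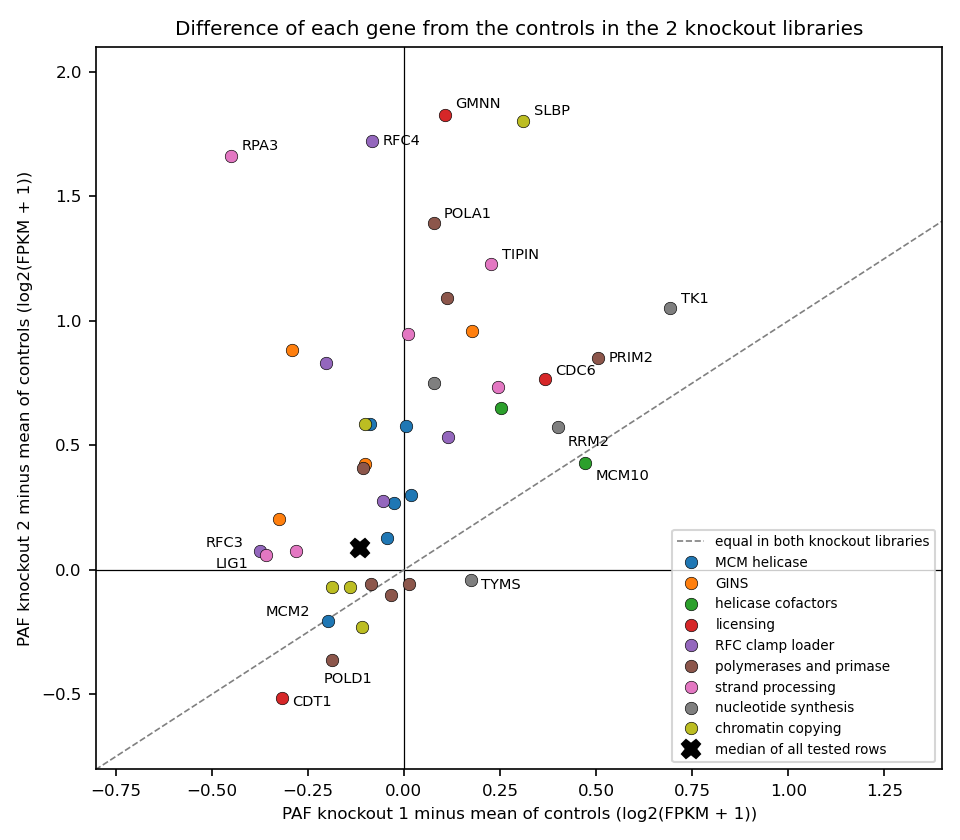
Difference of each gene from the mean of the controls on the log2(FPKM + 1) scale in knockout 1 (x axis) and knockout 2 (y axis), coloured by complex, with a dashed line of equal difference and a cross at the median of all tested rows. TK1, PRIM2, RRM2, MCM10 and CDC6 lie to the right and above 0, CDT1, POLD1 and MCM2 lie below 0 on both axes, and RPA3, RFC4, GMNN and SLBP have the highest values on the y axis.

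Base composition of the transcripts went with this step. GC content of the longest coding transcript (GENCODE M21 on GRCm38) ran from 40.4% for RPA3 and 40.8% for TIPIN to 58.8% for CDT1 and 60.7% for POLD1. The middle 120 bases of the coding sequence of RPA3 and of POLD1 are shown because these genes stand at the ends of that range, 5′ to 3′, with G and C in capitals. GC makes up 43.3% of the first stretch and 66.7% of the second.
RPA3: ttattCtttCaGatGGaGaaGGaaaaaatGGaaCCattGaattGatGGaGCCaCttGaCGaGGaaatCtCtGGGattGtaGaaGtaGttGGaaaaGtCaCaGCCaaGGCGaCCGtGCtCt
POLD1: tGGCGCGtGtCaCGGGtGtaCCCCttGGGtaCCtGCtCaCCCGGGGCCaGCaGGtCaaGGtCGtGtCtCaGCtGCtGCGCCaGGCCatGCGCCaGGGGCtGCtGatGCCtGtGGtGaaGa

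Across the 43 genes, the difference of knockout 2 from the controls had a Pearson r of -0.67 with GC content (Spearman rho -0.65). It was -0.16 (rho -0.23) for knockout 1 and -0.05 (rho -0.08) for control 1 against control 2. Across 12622 tested rows with a value, r was -0.46 for knockout 2 and -0.07 for knockout 1, so the relation in knockout 2 was present in the table as a whole. These are descriptions across genes of the same libraries, which are not independent points. With transcript length on a log2 scale, r in knockout 2 was -0.47 over the 43 genes and -0.07 over all rows. The 14 genes lowest in GC (40.4 to 47.8%) had a median difference of 0.05 in knockout 1 and 0.86 in knockout 2, where 3831 rows of the same GC range had -0.08 and 0.49. The 15 genes in the middle (47.8 to 52.5%) had medians of 0.01 and 0.43, against -0.10 and 0.10 over 3077 rows. The 14 genes highest in GC (53.4 to 60.7%) had -0.13 and -0.06, against -0.16 and -0.35 over 3930 rows. In each of the 3 ranges the genes' median therefore lay above that of the rows of like composition, in both libraries.

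**Figure D4:**
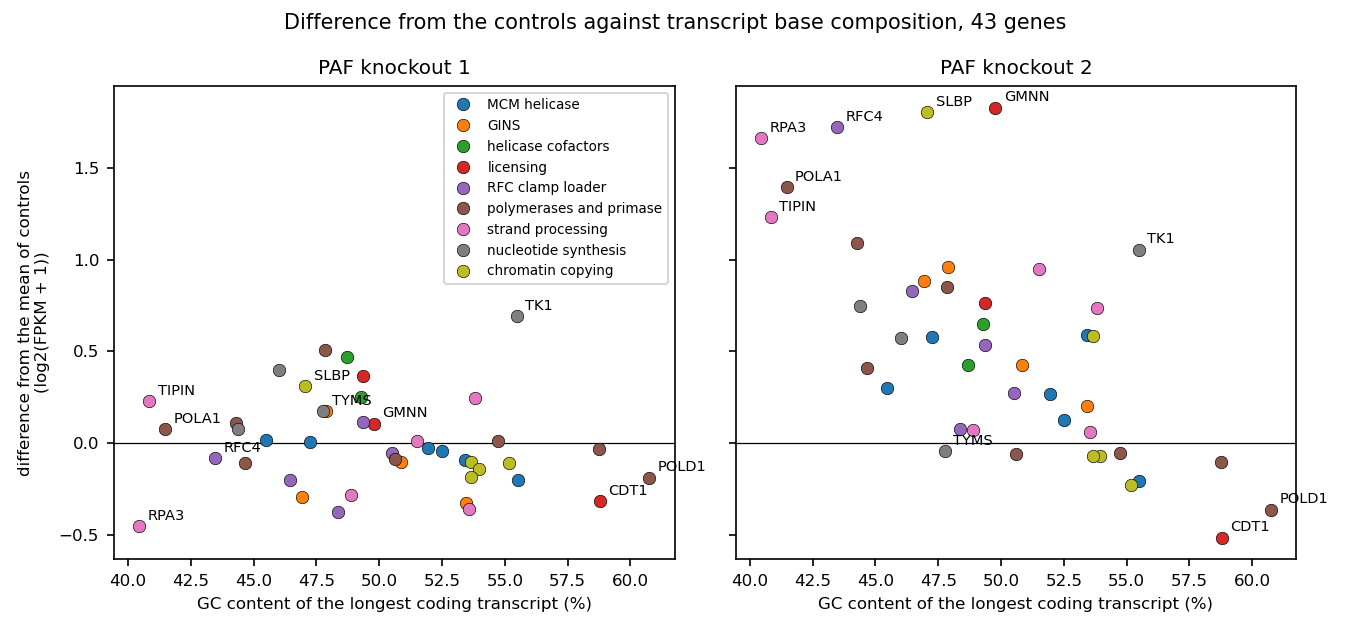
Difference from the mean of the controls on the log2(FPKM + 1) scale (y axis) against GC content of the longest coding transcript in percent (x axis) for the 43 genes, in knockout 1 (left) and knockout 2 (right), coloured by complex. Values in knockout 2 fall from RPA3, RFC4, SLBP and GMNN towards POLD1 and CDT1 as GC rises (r = -0.67), with TK1 above the trend, and knockout 1 shows a much flatter spread (r = -0.16).

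With a smooth trend on GC content and length removed from each library, a step chosen after the data were seen, the values of the 2 knockouts lay closer together. The median difference was then 0.23, with 0.13 in knockout 1 and 0.33 in knockout 2. On that scale 26 of 43 genes (60.5%) were higher in both knockouts and 3 (6.98%) lower, against 27.8% and 27.2% of 12622 rows. All 14 genes that were higher without the step were among the 26, and 2 of the 8 that were lower, CDT1 and CHAF1B, were still lower, by small differences of -0.07 each. RFC3 was the third. POLD1, POLD2, POLE, DNMT1 and CHAF1A went from lower to higher in both knockouts, by 0.14 to 0.27 on the log2 scale. RPA3 was left with a log2 difference of 0.01, while TK1 (0.93), SLBP (0.81), GMNN (0.70), CDC6 (0.62), FEN1 (0.61) and MCM10 (0.49) still lay above the controls. The knockouts still differed for some of these genes. RPA3 was at -0.41 in knockout 1 and 0.43 in knockout 2, GMNN at 0.09 and 1.32, and SLBP at 0.33 and 1.30. Limma called 0 of the 43 genes on this scale (lowest adjusted p = 0.181, for TK1, with 8 genes at an unadjusted p under 0.05, as had 17.1% of all rows on this scale).

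Ratios of FPKM values, which are per length, are given for partners in a step. A factor common to a whole library cancels in them, but the GC trend of knockout 2 does not where the partners differ in GC content, as GMNN (49.8%) and CDT1 (58.8%) do. GMNN to CDT1, inhibitor to target, was 0.798 and 0.840 in the controls, 1.12 in knockout 1 and 4.46 in knockout 2. CDC6 to CDT1 was 0.126 and 0.119 in the controls, 0.220 in knockout 1 and 0.361 in knockout 2. TK1 to TYMS was 0.319 and 0.354 in the controls, 0.497 in knockout 1 and 0.755 in knockout 2. In each knockout these 3 ratios stood above both controls.

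MCM2 to MCM6 was 0.995 and 0.949 in the controls, 0.840 in knockout 1 and 0.558 in knockout 2, and POLD1 to POLD2 was 0.293 and 0.267 against 0.248 and 0.228. Both were lower in both knockouts, but after removal of the GC and length trend the log2 difference of POLD1 (0.27) exceeded that of POLD2 (0.19). The ring subunits were otherwise even: the highest stood 1.38, 1.43 and 1.396 times above the lowest in the controls and knockout 1, and 1.79 times in knockout 2, and MCM6 was the highest in all 4 libraries. RPA3 to RPA1 was 0.907 and 0.994 in the controls, 0.838 in knockout 1 and 2.92 in knockout 2. RRM2 to RRM1 was 0.700 and 0.703 in the controls, 0.886 in knockout 1 and 0.622 in knockout 2, on either side of the controls.

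**Figure D5:**
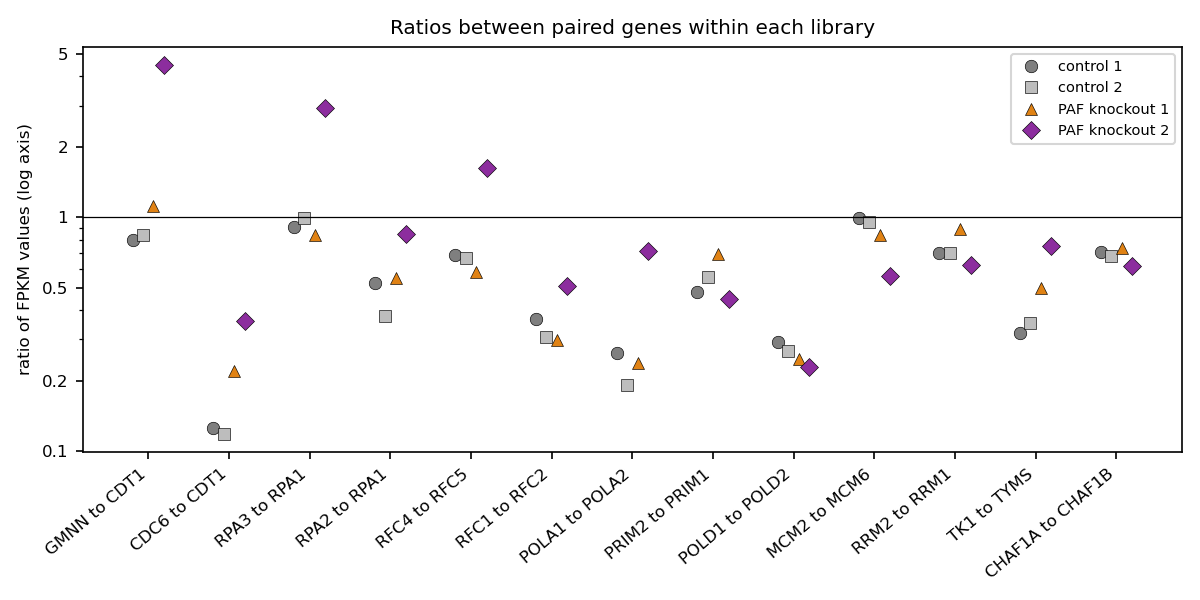
Ratio of the FPKM values of paired genes (y axis, log axis) for each pair named on the x axis, with 1 point per library and a line at a ratio of 1. GMNN to CDT1, CDC6 to CDT1 and TK1 to TYMS were higher in both knockouts, and MCM2 to MCM6 and POLD1 to POLD2 were lower. RPA3 to RPA1, RFC4 to RFC5 and POLA1 to POLA2 stood above both controls in knockout 2 alone. In knockout 1 RPA3 to RPA1 (0.838) and RFC4 to RFC5 (0.582) lay below both controls.

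Other genes of the pathway were taken from 5 lists of 76 genes. Limma called 0 in any list, and 4 of 75 tested genes (5.33%) had an unadjusted p under 0.05, against 13.2% of all rows. Of these 75 genes 16 (21.3%) were higher in both knockouts and 8 (10.7%) lower, against 21.5% and 30.2% of all rows. With median centring 33 were higher, above the 30.2% of all rows, and 5 were lower, below the 25.6% of all rows. The count of higher genes thus depends on the scaling. Of 13 tested genes of origin recognition and firing, 3 were higher in both knockouts and 0 lower (21.5% and 30.2% of all rows). They were the kinase CDC7, at 1.90 and 2.11 FPKM in the control pair and 2.83 and 5.35 FPKM in the knockout pair, its activator DBF4, and DONSON. Of 17 other replisome genes, 6 were higher and 1 lower. POLE3, a histone-fold subunit of polymerase epsilon, read 32.3 and 30.0 FPKM in the control pair and 44.8 and 67.8 FPKM in the knockout pair (log2 difference 0.81, SE 0.262, limma adjusted p = 0.355). PCNA, the clamp itself, read 75.6 and 73.5 FPKM in the control pair and 76.3 and 89.4 FPKM in the knockout pair, a log2 difference of 0.15 (SE 0.176, limma adjusted p = 0.690) that was -0.20 after removal of the GC and length trend.

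Of 24 other nucleotide genes, 4 (16.7%) were higher in both knockouts and 5 (20.8%) lower, against 21.5% and 30.2% of all rows. The mitochondrial thymidine kinase TK2 lay the other way from TK1, at 8.11 and 7.59 FPKM in the control pair and 4.28 and 5.55 FPKM in the knockout pair (log2 difference -0.59, SE 0.195, limma adjusted p = 0.360). IMPDH1, which commits inosine monophosphate to guanine nucleotides, read 19.2 and 20.2 FPKM against 14.7 and 10.4 FPKM. Of 13 E2F and pocket protein genes, 1 (7.69%) was higher and 2 (15.4%) lower, against 21.5% and 30.2% of all rows. The activator E2F2 read 5.84 and 5.71 FPKM in the control pair and 9.99 and 8.78 FPKM in the knockout pair (log2 difference 0.61, SE 0.165, limma adjusted p = 0.319), and E2F3 read 11.6 and 11.4 FPKM against 9.98 and 6.56 FPKM. Of 8 chromatin assembly genes, 2 were higher and 0 lower. NASP, a histone chaperone, read 20.5 and 21.1 FPKM in the control pair, 22.0 in knockout 1 and 63.4 in knockout 2, a step like that of SLBP.

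Most markers of dividing cells lay above the controls beside the set. The summed level of 7 proliferation markers was 208 and 209 FPKM in the control pair, 242 in knockout 1 and 349 in knockout 2. Of the 7 markers, 5 were higher in both knockouts, where 21.5% of all tested rows were. AURKB overlapped between groups (19.5 and 21.2 FPKM against 20.1 and 21.5 FPKM). PLK1 read 41.9 and 41.1 FPKM in the control pair, 43.2 in knockout 1 and 33.5 in knockout 2. MKI67 read 28.9 and 27.8 FPKM in the control pair and 34.1 and 45.1 FPKM in the knockout pair (log2 difference 0.46, SE 0.206, limma adjusted p = 0.438). The summed level of the 43 genes was 844 and 824 FPKM in the control pair, 818 in knockout 1 and 1222 in knockout 2. In knockout 2 both sums lay above the controls. In knockout 1 the sum of the 43 genes was close to that of control 2, and their median difference of -0.03 was 0.10 with median centring. The part of the number of dividing cells in the values of single genes was not tested.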

How the data were processed

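The authors deposited 1 table of FPKM values with a column per library, per the file headers. TopHat2, Cuffdiff and build mm9 come from the submitters' processing notes. Their versions, settings and gene models were not given in the sources used here. Because FPKM values are scaled for length and depth, no count test was used. The table held 29955 rows, and where a symbol repeated (84 extra rows) the more abundant row was kept. Values were taken as log2(FPKM + 1), filtered at a row mean of 1 FPKM and fitted by limma (version 3.58.1, R 4.3.3), with a trend of variance on mean, 2-sided tests and Benjamini-Hochberg adjustment over all 13716 tested rows. Differences on this scale understate changes of low genes. The members and lists were chosen with earlier results of these data known, so members carry no test as a set. All members could be named, and from each other pathway list the 3 genes of smallest p, with the PAF row, MKI67 and PCNA; some items that this rule names are not reported here. Names outside this rule were chosen after their values were seen. Length and GC content came from GENCODE M21 (GRCm38) for 43 of 43 members and 92.0% of tested rows. Because the table's build differs, its rows were matched by symbol and not by position. Promoter coordinates belong to GRCm38.p6. Overlaps between genes come from RefSeq gene coordinates, and the coding stretches were cut with GENCODE M21 coordinates. In the annotation 11 members overlap another coding gene, and TYMS has a named pseudogene. Depth was estimated from the commonest low value of FPKM times length over long genes with a single transcript. No label states that the libraries are from different animals, so p-values measure the spread between these samples. That spread may be technical between the controls, which were alike in XIST and EIF2S3Y. The 2 knockouts differed in both, with XIST at 0.00696 FPKM in knockout 1 and 46.4 FPKM in knockout 2. The fit was tested on simulated data. Alternatives were pseudocounts of 0.1 and 0.01, no filter, a filter at 5 FPKM, median centring, quantile scaling, no trend, summed repeats, a replicate block and leaving out each library. Removal of a GC and length trend (loess) and a crossed block were added after the data were seen.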

Additional observations from a re-analysis of the deposited data

How the results depend on the processing

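Limma called 0 of the 43 members in every setting that kept all 4 libraries, and 0 to 27 when 1 library was left out. Over all rows it called 10 as reported, 4 with no filter on low values, 0 after removal of the GC and length trend, and 0 to 8397 when 1 library was left out. The counts of members apart from the controls followed the scaling. They were 22 higher and 4 lower with median centring, 22 and 5 with quantile scaling, 26 and 3 after removal of the GC and length trend, and 15 to 33 and 8 to 21 when 1 library was left out. Other pathway genes gave 16 higher and 8 lower as reported, 33 and 5 with median centring, 32 and 5 with quantile scaling, 29 and 14 after removal of the GC and length trend, and 20 to 57 and 8 to 36 when 1 library was left out. Complex medians moved beyond the spread between libraries for polymerases and primase (0.22), nucleotide synthesis (0.22) and chromatin copying (0.21) with the GC and length trend removed, and for chromatin copying with median centring (-0.047). With 1 library left out the ranges were, in log2 units: MCM helicase -0.036 to 0.28, licensing 0.11 to 0.76, RFC clamp loader -0.082 to 0.53, polymerases and primase -0.018 to 0.18, strand processing -0.14 to 0.84, nucleotide synthesis 0.29 to 0.66. The cause of these moves was not tested.

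Direction changed with the GC and length trend removed for MCM2 0.088, MCM4 -0.025, GINS1 -0.067, GINS2 0.16, GINS4 -0.012, POLA2 0.15, POLD1 0.27, POLD2 0.19, POLE 0.14, POLE2 -0.19, LIG1 0.026, TYMS -0.046, DNMT1 0.21, CHAF1A 0.20, E2F5 -0.0016, PCNA -0.20, in log2 units. POLA2 also turned to 0.036 with median centring and 0.031 with quantile scaling. When 1 library was left out, 17 members changed direction, with ranges of MCM3 -0.045 to 0.13, MCM5 -0.027 to 0.27, MCM7 -0.089 to 0.59, GINS1 -0.29 to 0.88, GINS2 -0.33 to 0.20, GINS4 -0.10 to 0.43, RFC1 -0.20 to 0.83, RFC2 -0.054 to 0.28, RFC3 -0.38 to 0.077, RFC4 -0.082 to 1.72, POLA2 -0.086 to 0.043, POLE2 -0.11 to 0.41, LIG1 -0.36 to 0.059, RPA1 -0.28 to 0.074, RPA3 -0.45 to 1.66, TYMS -0.042 to 0.17, UHRF1 -0.10 to 0.59. The other 26 kept theirs in all 4 such settings. Pseudocounts, the filters, the trend and summed repeats changed no member's direction.

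The replicate numbers of the labels share only a number: deviations of same-numbered libraries correlated at -0.11. With a replicate block limma called 13 rows and 0 members, and 1 member instead of 4 had an unadjusted p under 0.05. With the crossed pairing it also called 13 rows and 0 members. With 2 libraries a group and knockouts that differ by a median of 0.42 (log2) over the set, differences of the size seen here could not be told from the spread between libraries. Genes below about 100 fragments, such as GINS3, are further limited by counting.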
